A study of Tribolium castaneum with 8 samples.

Results

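The Osiris genes described here are the 8 gene models, of 14422 listed in at least 1 library, whose protein description in the deposited files contains the word Osiris. They were followed through 4 RNA libraries of the flour beetle Tribolium castaneum, an insect with a full pupal metamorphosis. Animals of strain GA-1 were kept on wheat flour with yeast and used as whole bodies, and the labels name no treatment. There was 1 library each from embryos (3 days), larvae (20 days), pupae (3 days) and adults (3 days), and no label gives the sex or the number of animals behind an RNA library. A further 4 bisulfite libraries of the same stages were not analysed here. Polyadenylated RNA was sequenced and no strand-marking step is described, so a gene and an antisense partner cannot be told apart. In whole bodies, fewer cells of a type and less RNA per cell cannot be told apart either.

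The Osiris genes are a family known from insects. In Drosophila melanogaster most of its genes stand side by side in the Triplo-lethal region, named for its unusual sensitivity to gene dose. The proteins carry a signal peptide and enter the secretory and endosomal system, and the genes are known in flies for expression in epithelia that lay down cuticle, the epidermis and the tracheae among them. The work of single beetle members is less well known, so the genes below are named by their descriptions.

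Unique gene reads numbered 3.24 M in the embryo library, 3.58 M in that of larvae, 3.67 M in that of pupae and 3.09 M in that of adults. As each stage had 1 library, no difference could be set against replicates and no test was made. All intervals are 95% intervals that cover counting error only. The family was chosen with its levels in these libraries known, so levels and ratios are a description. The stage labels were set against the 6 models described as hexamerins or arylphorin, storage proteins that late larvae build up. Arylphorin (TC005376), hexamerin 1B (TC005377) and hexamerin 2 (TC006769) stood at 15056 to 20317 RPKM in larvae and at most 56.6 elsewhere. Hexamerin 4 (TC005375) was also highest in larvae, with 683 RPKM in pupae against 1652 in larvae. The others did not single out the larva, with 32.3 RPKM in pupae and 32.4 in larvae for hexamerin 3 (TC005374), and 1370 in pupae and 86.0 in larvae for hexamerin 5 (TC006515). RPKM is reads per kilobase of the gene model and per M gene reads, and is the scale of every level here.

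With their reads summed, the 8 genes were an embryonic and, in part, pupal group that was almost silent in the adult. Together they took 29824 reads or 0.919% of the embryo library (0.909 to 0.930). Their share was 0.0422% of the larval library (0.0401 to 0.0443, 1508 reads) and 0.212% of the pupal library (0.207 to 0.217, 7779 reads). In the adult library 46 reads were left, a share of 0.00149% (0.00112 to 0.00199). These shares are mostly those of TC011658, TC011660, TC011661 and TC012679. These genes held 98.5% of the members' reads in the embryo, 90.3% in larvae, 96.4% in pupae and 93.5% in adults. Of the 8 genes, 7 were highest in the embryo and 1, TC012679, in the pupa, and rescaling the libraries by their median ratio moved the top of TC012820 to the larva. The adult value was the lowest in 7, and in the remaining gene, TC012820, the pupal and adult values rest on 1 and 2 reads and their order is not resolved. Among these 7, TC012680 had 4 larval and 0 adult reads, so the order of its larva and adult is not resolved either. The middle of the order differed among members, with the pupa above the larva in 4 genes and the larva above the pupa in 4. In TC011657, of the former, and TC011827, of the latter, pupa and larva were not apart beyond counting error.

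**Figure D1:**
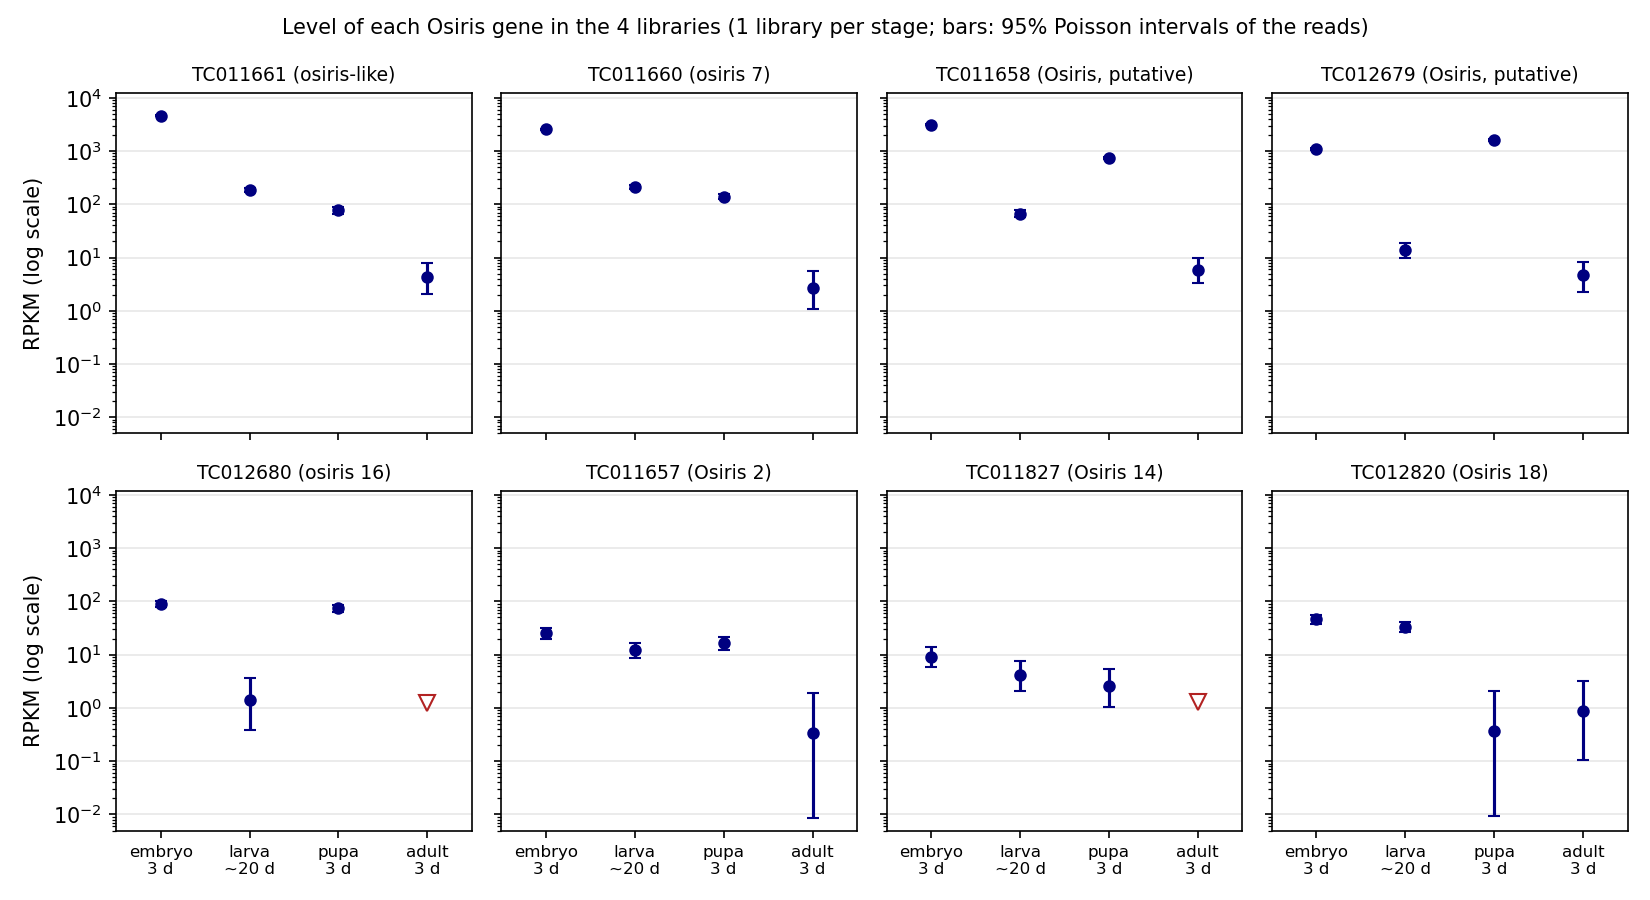
Each panel plots 1 Osiris gene, with RPKM on a log axis against the 4 libraries. Dots are single libraries with 95% Poisson intervals of the reads, and open triangles mark the level that 3 reads would give where no read was counted. The adult dot or triangle lies at or below 5.85 RPKM in every panel, and the pupal dot is high in TC011658, TC012679 and TC012680.

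The most abundant member in the embryo was TC011661, an osiris-like protein precursor. It stood at 4606 RPKM in the embryo (11433 reads), 182 in larvae (499), 76.5 in pupae (215) and 4.24 in adults (10). In the embryo library only 1 gene had a higher RPKM and 2 had more reads. Each library lay below the one before it beyond counting error, with 25.3-fold (23.1 to 27.7) less in the larva than in the embryo and 2.38-fold (2.03 to 2.81) less in the pupa than in the larva.

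TC011660, similar to osiris 7 and named Osi7 in RefSeq, followed the same order at a lower level. Its values were 2544 RPKM in the embryo (6909 reads), 209 in larvae (627), 139 in pupae (428) and 2.71 in adults (7). The pupal level was 1.50-fold (1.33 to 1.71) below the larval one and 18.3-fold (16.6 to 20.2) below the embryonic one. TC011660 and TC011661 were the most alike of the 28 pairs of members, with a distance of 1.31 between their profiles. The weakly expressed TC011657 and TC011827 came almost level with them at 1.32. Distances were measured on log2(RPKM + 1) less each gene's mean over the 4 libraries.

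TC011658, described only as a putative Osiris, returned in the pupa. It stood at 3079 RPKM in the embryo (8302 reads), 66.6 in larvae (198), 749 in pupae (2285) and 5.85 in adults (15). The pupal value was 11.2-fold (9.71 to 13.1) above the larval value and still 4.11-fold (3.93 to 4.31) below the embryonic one. It ranked 8 among all genes by RPKM in the embryo and 124 in pupae.

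TC012679, another putative Osiris, was the member that was highest in the pupa. Its values were 1092 RPKM in the embryo (2741 reads), 13.7 in larvae (38), 1608 in pupae (4572) and 4.61 in adults (11). The pupal level exceeded the embryonic one 1.47-fold (1.40 to 1.55). Between pupa and adult it showed the largest ratio of the members with an adult read, 349-fold lower in the adult (195 to 700.1). The next model by number, TC012680 (similar to osiris 16), had the same high embryo and pupa and low larva at a lower level, with 89.4 RPKM in the embryo (227 reads), 1.43 in larvae (4), 74.1 in pupae (213) and 0 reads in adults. Its embryonic and pupal levels were not apart beyond counting error, with the pupa 1.21-fold lower (0.996 to 1.46). Taking a floor of 3 adult reads, the adult value was 59.7-fold below the pupal one, with counting error left out.

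TC012820, similar to Osiris 18 and named Osi18 in RefSeq, kept a larval level and was nearly absent in the pupa. It stood at 46.6 RPKM in the embryo (112 reads), 33.6 in larvae (89), 0.367 in pupae (1) and 0.875 in adults (2). Larva and embryo were close, with the larva 1.39-fold lower (1.04 to 1.85), a direction that turned after median-ratio rescaling. The pupal level was 91.4-fold below the larval one, with a wide interval (15.99 to 3650) on a single pupal read. No other pair of members was as far apart as TC012820 and TC012679, at a distance of 8.47.

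The remaining genes were weakly expressed. TC011657, similar to Osiris 2 (Osi2 in RefSeq), had 25.0 RPKM in the embryo (78 reads), 12.2 in larvae (42), 16.4 in pupae (58) and 0.338 in adults (1). Its pupal and larval levels were not apart beyond counting error (ratio 1.34, 0.889 to 2.05). TC011827, similar to Osiris 14 (Osi14 in RefSeq), had 9.19 RPKM in the embryo (22 reads), 4.17 in larvae (11), 2.58 in pupae (7) and 0 reads in adults. Its larval and pupal levels were likewise not apart (pupa over larva 0.620, 0.204 to 1.75). Taking a floor of 3 adult reads, its adult level was 1.96-fold below the pupal one, with counting error left out.

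The counts of members past 2-fold were set beside the share of all genes past 2-fold. These counts use log2 of the ratio of (RPKM + 1), which understates the change of weakly expressed genes, over genes that reached 1 RPKM in either library. Between larva and embryo 8 members were counted, with 5 lower in the larva and 0 higher, beside 34.2% of 12179 genes lower and 18.6% higher. The members' median was -4.12 and that of all genes -0.62. Median-ratio rescaling moved the median of all genes to -0.01 and turned their split to 2042 lower and 2996 higher, against 4169 lower and 2269 higher as deposited. TC011657 and TC011827 fell just short of the threshold on this scale, with RPKM ratios of 2.05-fold (1.39 to 3.05) and 2.20-fold (1.02 to 5.04) lower in the larva.

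Between pupa and larva the family split. Of the 8 members, TC011658, TC012679 and TC012680 were higher in the pupa, beside 22.7% of 12280 genes, and TC011661 and TC012820 were lower, beside 14.2%. The median of the members, -0.06, hides this split, with values from -4.66 in TC012820 to 6.77 in TC012679, and that of all genes was 0.43. Rescaling turned the split of all genes here to 1714 higher and 2281 lower, against 2792 higher and 1748 lower as deposited. Between adult and pupa 7 members passed the filter on low values and TC012820 did not. All 7 counted were lower in the adult and 0 higher, beside 15.6% of 12713 genes lower and 22.8% higher, with a median of -5.24 against -0.09 over all genes. The call of TC011827 in this step rests on 7 pupal reads. Between pupa and embryo 5 of 8 members were lower in the pupa and 0 higher, beside 14.9% and 16.2% of 12146 genes, with medians of -1.77 for the members and -0.17 for all genes. TC011657, TC012679 and TC012680 were the members that stayed within 2-fold between these stages. These shares are printed for scale and nothing is read from them, because the family was chosen on the same libraries.

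**Figure D2:**
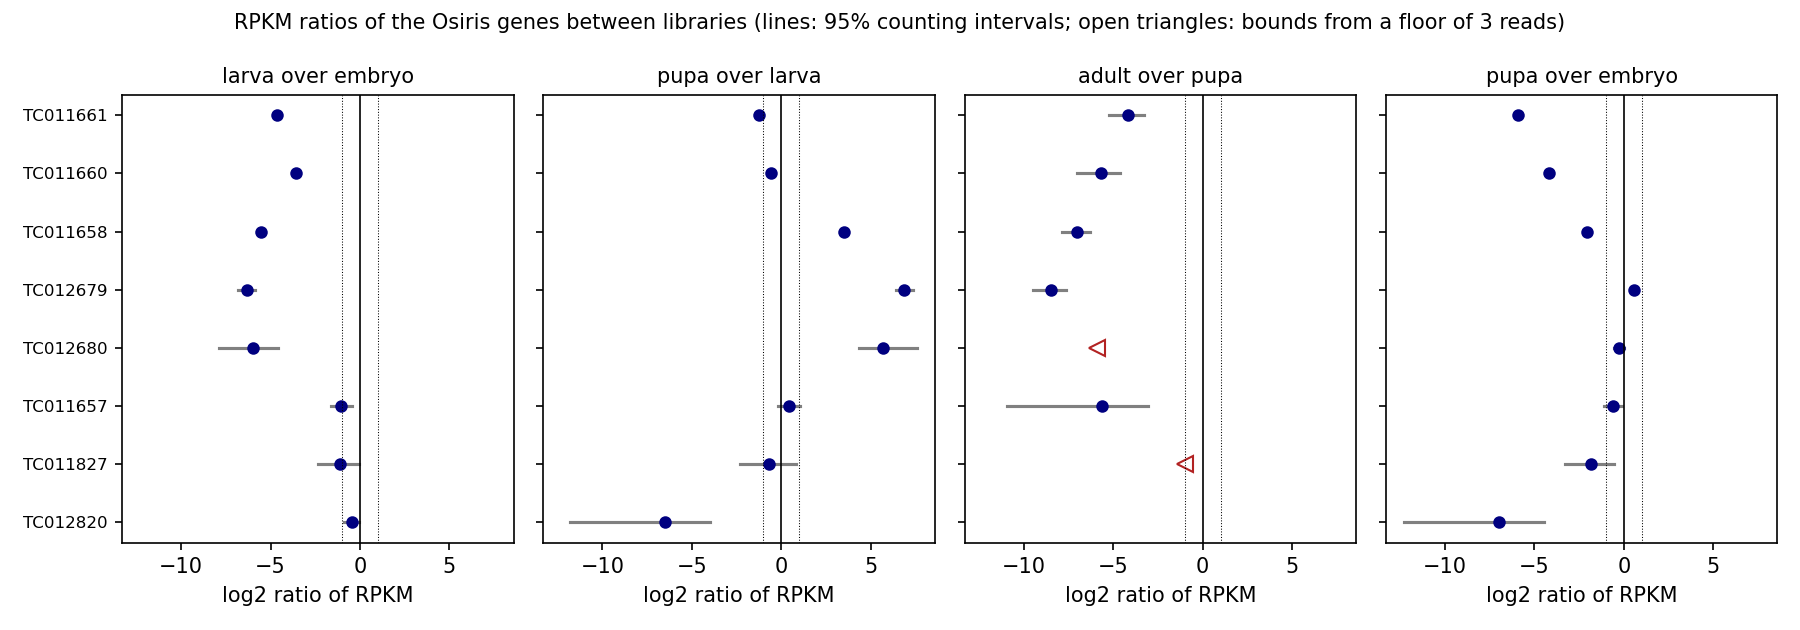
Each panel shows 1 pair of libraries, with log2 of the RPKM ratio on the x axis and the 8 Osiris genes down the page. Dots are ratios, grey lines 95% counting intervals, open triangles bounds from a floor of 3 reads, and dotted lines mark 2-fold in each direction. All points lie left of 0 for larva over embryo and for adult over pupa, whereas pupa over larva has points on both sides, from TC012820 far left to TC012679 far right. TC012820 has no point for adult over pupa.

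The abundant members were covered over nearly their whole length in the embryo, which at such read numbers does not show how evenly the reads lay. The deposited coverage, the percent of a model's length under reads, lay between 99.48% and 99.88% in the embryo for TC011658, TC011660, TC011661 and TC012679. TC012679 was covered over 75.2% of its length by 38 larval reads, against a median of 78.01% over 295 other models of 500 to 1000 bases with read densities within about 25% of its own. The single pupal read of TC012820 and the single adult read of TC011657 each covered 49 bases. The 2 adult reads of TC012820 covered 98 bases. In the embryo TC012820 was covered over 84.5% of its length by 112 reads, less than the 94.2% median of models of like density, of which 12.3% were lower. In the larva, with 89 reads, it was covered over 92.98%.

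The position of the genes was taken from the RefSeq table of assembly icTriCast1.1, which is not stated to be the build of the files, so it was used only for names and for which genes neighbour each other. All 8 members matched a RefSeq gene by protein accession, 7 at the same version, and all 8 lie on chromosome 2. In the order of protein-coding genes there, TC012679, TC012680 and TC011827 stand next to each other. Elsewhere on the chromosome TC011657 and TC011658 are neighbours, 1 gene separates them from TC011660, and TC011661 follows directly. TC012820 lies in a further run with the RefSeq genes Osi17 and Osi20. Of 11 RefSeq genes with an Osi symbol, 5 were matched to a model in the files. The symbol added by this match was Osi20 for TC012823, a model with no informative description.

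The 3 models that follow TC012820 by number were likewise low in pupa and adult, and the models just outside this run were not low in both. The models TC012821 and TC012822 (both similar to the mosquito protein AGAP012549-PA) and TC012823 (Osi20) make a run of 4 with it. Across these 4 models the embryo values ran from 11.5 to 54.7 RPKM and the larval values from 32.6 to 67.6. Pupal values ran from 0.367 to 1.12 RPKM and adult values from 0.443 to 2.60, each on 1 to 6 reads. Osi20 itself stood at 39.2 RPKM in the embryo, 59.1 in larvae, 1.09 in pupae and 2.60 in adults, 54.1-fold lower in the pupa than in the larva (18.2 to 265). It was 1.51-fold higher in the larva than in the embryo (1.16 to 1.97), while TC012820 as deposited was lower there. Just outside the run, TC012819 stood at 53.2 RPKM in pupae and 2.06 in adults, and TC012824, an aminopeptidase by its KEGG match, at 37.5 in pupae and 52.3 in adults. Further off, TC012818 stood at 28.9 RPKM in pupae and 24.3 in adults, and TC012817 at 95.1 and 81.1. TC012815 was also low in both stages, at 0.264 and 0.314 RPKM, but it was at most 0.448 RPKM in every library.

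The unnamed model TC011659, numbered between TC011658 and TC011660, had the profile of TC012679 almost exactly. It stood at 1116 RPKM in the embryo (2499 reads), 12.6 in larvae (31), 1475 in pupae (3738) and 5.17 in adults (11). Of all 10593 genes with at least 10 RPKM in some library it was the nearest to TC012679, at a distance of 0.22. Its own neighbours TC011658 and TC011660 were instead higher in the embryo than in the pupa. TC011662, similar to the mosquito protein AGAP004131-PA and next after TC011661, also had its highest value in the pupa, with 91.3 RPKM in the embryo, 3.71 in larvae, 152 in pupae and 0.430 in adults. Only unique reads were counted, so reads that fit several near-identical models are missing from each.

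TC011665, described as similar to lactoylglutathione lyase, a glyoxalase enzyme, lay nearest of all genes to TC011658, at a distance of 0.43. It stood at 1975 RPKM in the embryo (4576 reads), 50.9 in larvae (130), 413 in pupae (1084) and 4.54 in adults (10). Its KEGG match is the gene AAEL002957 of the mosquito Aedes aegypti, and 2 Osiris members, TC011661 and TC011827, have that same mosquito gene as their KEGG match. No other of the 9278 models with a KEGG match has it. The alignment scores were 149 for TC011665, 68.6 for TC011661 and 72.4 for TC011827.

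Another KEGG match also joins models beside members. TC011655 and TC011656, numbered just before TC011657, and TC012819, just before TC012820, have as KEGG match a Tribolium gene called a neuropeptide Y receptor there, whose gene number carries the symbol Osi24 in RefSeq. TC011656 stood at 318 RPKM in the embryo, 26.5 in larvae, 80.6 in pupae and 2.32 in adults. TC012819 stood at 246, 12.3, 53.2 and 2.06 RPKM in the same order of stages, and TC011655 at 35.3, 2.71, 12.1 and 4.88. All of them were highest in the embryo and second in the pupa, and none is described as Osiris in the files. The alignment scores of this match were 1040 for TC011655, 761 for TC011656 and 115 for TC012819, the weakest. Which of these models, if any, is Osi24 could not be settled here, since the RefSeq gene matched no model by accession.

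Over the 38 other models whose number lies within 5 of a member's, the counts were mixed. Between larva and embryo 17 of 37 were lower and 5 higher in the larva, beside 34.2% and 18.6% of all genes. Between pupa and larva 9 of 35 were higher and 9 lower, beside 22.7% and 14.2%. Between adult and pupa 6 of 32 were lower and 2 higher in the adult, beside 15.6% and 22.8%, and between pupa and embryo 14 of 34 were lower and 0 higher in the pupa, beside 14.9% and 16.2%. TC012681, next after TC012680 and an N-acetylglucosamine kinase by its KEGG match, stood at 13.4 RPKM in the embryo, 36.8 in larvae, 14.8 in pupae and 19.5 in adults. TC012685 stood at 168, 162, 269 and 146 RPKM in that order.

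**Figure D3:**
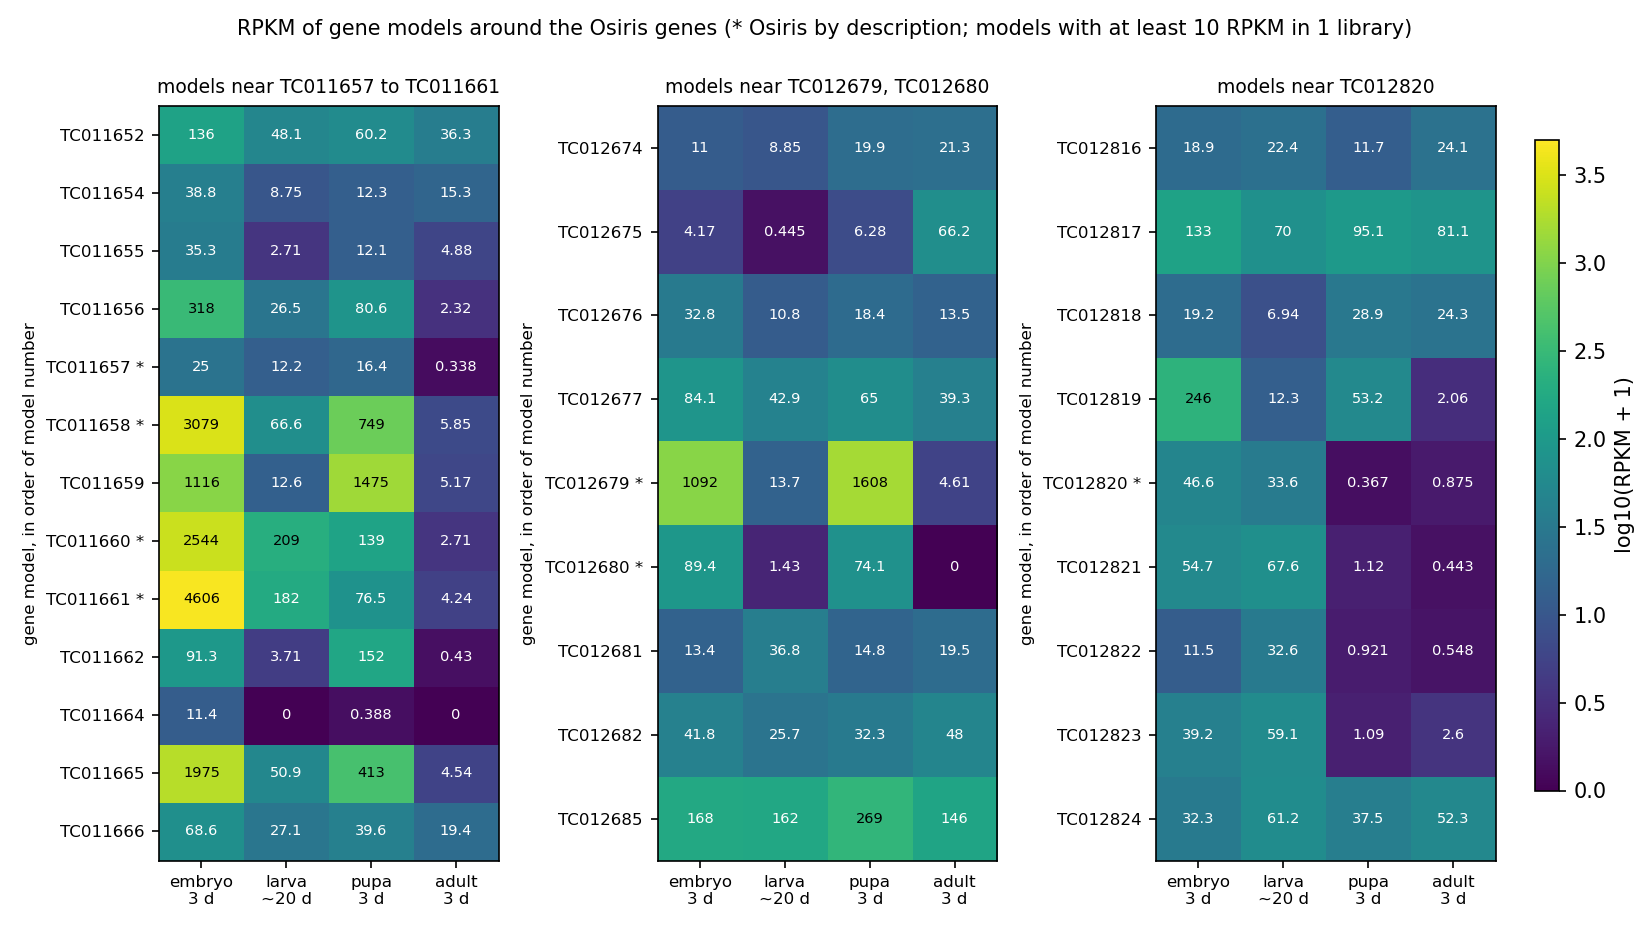
Rows are gene models around the Osiris genes in order of model number, columns are the 4 libraries, colour is log10(RPKM + 1) and the printed values are RPKM. Asterisks mark models described as Osiris, models under 10 RPKM in every library are left out, and TC011827 lies outside these runs. TC012820 to TC012823 are dark in pupa and adult, and TC011659 and TC012679 are bright in embryo and pupa.

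The genes most like the family as a whole were sought by the distance to the members' median profile. All 10 nearest genes outside the family were highest in the embryo and lowest in the adult, and 5 were hypothetical proteins. Their order of stages follows from the way they were chosen. The members' median profile was itself highest in the embryo (3.16) and lowest in the adult (-3.90). The nearest was TC009889 at a distance of 0.42, a hypothetical protein with 388 RPKM in the embryo, 63.0 in larvae, 83.2 in pupae and 3.01 in adults. The list also held TC016058 (0.66), TC011602 (0.90), TC000410 (0.90), TC002837 (0.96), TC015556 (1.11), TC011656 (1.17), the sulfotransferase TC012015 (1.31), TC010154 (1.45) and TC006577 (1.50). Likeness over 4 libraries is a weak measure, and the members themselves lay 1.74 (TC011660) to 4.78 (TC012679) from their own median.

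**Figure D4:**
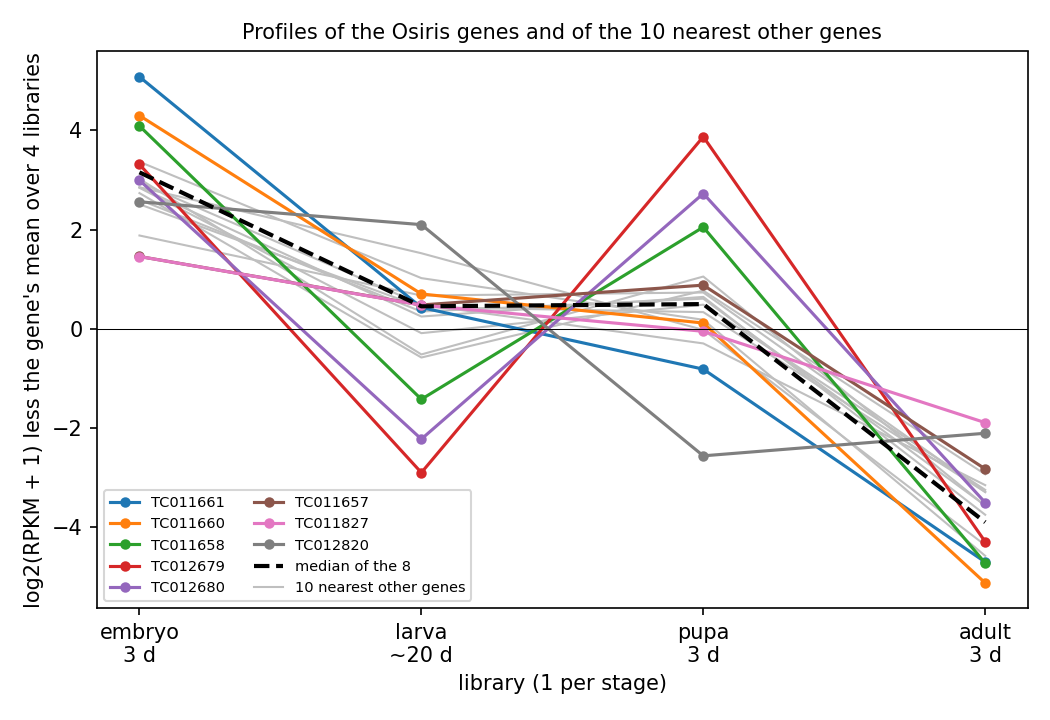
The x axis gives the 4 libraries and the y axis log2(RPKM + 1) less the gene's mean over them. Coloured lines are the 8 Osiris genes, the dashed line their median, and grey lines the 10 nearest other genes. TC012679, TC012680 and TC011658 dip in the larva and rise in the pupa, and TC012820 stays high in the larva and drops in the pupa.

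Lists of other genes were matched by words in the descriptions and gave a mixed picture beside the family. Of 70 cuticle proteins counted between larva and embryo, 53 were higher and 6 lower in the larva, beside 18.6% and 34.2% of all genes. Of 71 counted between pupa and larva, 9 were higher and 49 lower in the pupa, beside 22.7% and 14.2%. In the adult 34 of 61 were higher and 10 lower than in the pupa, beside 22.8% and 15.6%, and in the pupa 22 of 57 were higher and 13 lower than in the embryo, beside 16.2% and 14.9%. The medians of the cuticle proteins were 2.23 for larva over embryo and -2.15 for pupa over larva, where the Osiris genes had -4.12 and -0.06.

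The cuticle proteins named by abundance or change peaked in different libraries. TC013136, similar to pupal cuticle protein 78E, stood at 2.43 RPKM in the embryo, 3877 in larvae, 2.86 in pupae and 2.55 in adults. Larvae and pupae of other ages were not sampled, so its level is not weighed against the word pupal in its description. TC014500, similar to a pupal cuticle protein, stood at 0.899 RPKM in pupae against 1452 in larvae, its highest library. The putative cuticle protein TC013135 reached 2230 RPKM in adults and TC014499 reached 582, against 7.03 and 0.873 in pupae. TC002434 was listed at 74.5 RPKM in pupae and at 0 in the embryo, and TC008767 at 0 in pupae and 143 in the embryo.

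The list of chitin genes held 8 models, of which 6 are chitin deacetylases, enzymes that modify chitin, 1 is chitin synthase 2 and 1 is knickkopf. In the larva 4 were higher and 0 lower than in the embryo, beside 18.6% and 34.2% of all genes. The 4 were chitin synthase 2 (TC012163) and the chitin deacetylases 6, 8 and 9. In beetles these are known from the gut and its peritrophic matrix more than from the epidermal cuticle. Chitin deacetylase 9 (TC003905) stood at 1.61 RPKM in the embryo, 506 in larvae, 4.75 in pupae and 6.79 in adults. Chitin deacetylase 8 (TC014147) stood at 0, 147, 0.722 and 4.87 RPKM in that order of stages, and chitin deacetylase 6 (TC013662) at 0, 65.5, 0.225 and 13.1. The same 4 genes were the 4 lower in the pupa than in the larva, and 3 others were higher, beside 14.2% lower and 22.7% higher among all genes. Among those 3 were chitin deacetylase 3 (TC005409), at 21.5 RPKM in pupae and 4.60 in larvae, and knickkopf (TC010653), which protects and organises chitin in the new cuticle. Knickkopf stood at 93.7 RPKM in the embryo, 54.6 in larvae, 208 in pupae and 67.0 in adults, and chitin deacetylase 1 (TC014100) at 163, 291, 238 and 475. In the adult 3 of 8 were higher and 2 lower than in the pupa, beside 22.8% and 15.6%, and in the pupa 3 of 6 were higher and 0 lower than in the embryo, beside 16.2% and 14.9%.

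Of 13 moulting regulators counted, 4 were higher and 3 lower in the larva than in the embryo, beside 18.6% and 34.2% of all genes, and 4 were higher and 3 lower in the pupa than in the larva, beside 22.7% and 14.2%. In the adult 1 was higher and 4 lower than in the pupa, beside 22.8% and 15.6%, and in the pupa 3 were higher and 2 lower than in the embryo, beside 16.2% and 14.9%. The most abundant was the ecdysone-induced nuclear receptor E75 (TC012440), at 52.4 RPKM in the embryo, 68.0 in larvae, 222 in pupae and 32.6 in adults. The nuclear receptor E78 (TC003935) stood at 66.0, 4.04, 133 and 4.68 RPKM in that order of stages. Blimp-1 (TC014741), an ecdysone-induced repressor in flies that times the nuclear receptor ftz-f1, stood at 52.0, 3.09, 114 and 7.51 RPKM. E78 and Blimp-1 shared the top of the order of TC012679, pupa then embryo, and E75 did not share it. Blimp-1 had the adult (65 reads) above the larva (31 reads). E78 had 16 reads in the larva and 16 in the adult, so the order of its larva and adult is not resolved. HR4 (TC000543) had the whole order of TC012679 as deposited. It stood at 97.3 RPKM in the embryo (721 reads), 31.2 in larvae (255), 108 in pupae (903) and 26.4 in adults (186). Its pupa and embryo were close, as were its larva and adult, and no interval is given for either pair here. The broad-complex model TC012894 stood at 101, 50.3, 97.7 and 83.3 RPKM in that order of stages. Its embryo (396 reads) and pupa (433 reads) were close, and which comes first is not resolved. The ftz transcription factor 1 (TC002550) was instead lowest in pupae, at 30.5 RPKM in the embryo, 62.8 in larvae, 4.16 in pupae and 39.8 in adults.

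Trachealess (TC001448), the regulator of tracheal fate in flies, stood at 28.9, 14.99, 27.4 and 7.99 RPKM from embryo to adult and ventral veins lacking (TC014350) at 63.0, 26.5, 57.0 and 38.5. Of this pair of genes 1 was lower in the larva than in the embryo, beside 34.2% of all genes. In the pupa 1 was higher than in the larva, beside 22.7%, and in the adult 1 was lower than in the pupa, beside 15.6%. Between pupa and embryo 0 were past 2-fold, beside 16.2% higher and 14.9% lower. Of 8 Rab GTPases, which direct vesicle traffic, 3 were lower and 0 higher in the larva than in the embryo. The share lower was close to the 34.2% among all genes, of which 18.6% were higher. In the pupa 1 was higher and 1 lower than in the larva, beside 22.7% and 14.2% of all genes. In the adult 1 was lower and 0 higher than in the pupa, beside 15.6% and 22.8%. In the pupa 1 was lower and 0 higher than in the embryo, beside 14.9% and 16.2%. The most abundant were TC014110 (Rab18), at 82.3 to 183 RPKM over the libraries, and TC015416, at 72.0 to 121. The most changed were TC009113 (35.5 to 120 RPKM), TC001600 (42.7 to 101) and TC007291 (3.29 to 11.5).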

How the data were processed

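The authors deposited, for each RNA library, unique read counts per gene model, RPKM values and coverage in percent of the model's length, per the file headers. RPKM recomputed from reads, model length and the header total differed by at most 3.66e-14 in relative terms. Each file lists models with at least 1 read, so an unlisted model was taken as 0 reads. Per the labels' protocols, polyadenylated RNA was fragmented and primed with random hexamers. Tools listed per the submitters' processing notes, without their roles, are SAMtools 0.1.19, CASAVA 1.8.2 and BSMAP 2.73. Which program aligned or counted the RNA reads, and on which genome build, was not given in the sources used here. The genes and lists were chosen with earlier results of these data known. Lists were matched by words in the descriptions: cuticle proteins, chitin synthesis and apical matrix, moulting regulators, epidermal and tracheal transcription factors, Rab GTPases, and models within 5 of a member's number. The Wnt regulator naked cuticle, which the word cuticle also matched, was left out of the cuticle proteins. Ratios carry exact conditional binomial 95% intervals, shares Wilson intervals, and a library at 0 reads was set to a floor of 3 reads for a bound. Such a bound leaves out counting error and is not a confidence limit. The code for calls and intervals was run on simulated counts with counting error only and changes planted in genes with many reads. This run checks the code and does not cover variation between animals or weakly expressed genes. Named genes were the 8 members, models with an Osi symbol, neighbours by number (those a sentence turns on), genes of the lists (the 2 most abundant and the 2 most changed at each step) and the 10 nearest profiles. Trachealess and ventral veins lacking are the 2 genes of their list. HR4 and TC012894 were named in addition for their order of libraries. The genes nearest to single members and the shared KEGG matches were looked up after the values were seen. Sequences were not used here. Software was matplotlib 3.10.9, scipy 1.17.1, pandas 2.3.3 and numpy 2.4.6 under Python 3.11.15.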

Additional observations from a re-analysis of the deposited data

How the results depend on the processing

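No paired analysis was possible because each stage has 1 library, and leaving out a library leaves no comparison. Other settings were a pseudocount of 0.1, no filter, a filter of 5 RPKM, a 4-fold threshold, intervals wholly past 2-fold, median-ratio rescaling, totals without the 20 most abundant genes of each library, and TPM scaling. Counts of members past the threshold, or highest or lowest in a library, stayed within 1.5 times under these settings except for the following. At 4-fold, 1 member and not 2 was lower in the pupa than in the larva. After median-ratio rescaling 1 member, TC012820, was highest in the larva (larva over embryo 0.17 on the log2 scale, against -0.47 as deposited), 6 members were highest in the embryo, and TC011657 and TC012820 had another order of libraries. With the 20 most abundant genes left out of the totals the family's share was 1.003% in the embryo, 0.0558% in the larva and 0.243% in the pupa. With a pseudocount of 0.1, 7 members were lower in the larva than in the embryo. Median-ratio rescaling shifts larva over embryo by 0.64 (log2), pupa over larva by -0.46, adult over pupa by 0.22 and pupa over embryo by 0.19, and no called ratio of a member changed direction under any scaling. In the adult library all 8 members had under 100 reads and 4 had 3 or fewer, so orders among them there are limited by depth.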
